A study of Mus musculus with 3 samples.

Results

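Accessible chromatin that was called strongly in both HNF4-deficient libraries of fetal mouse gut epithelium, and that had no called peak in or near it in the control library, is described here. Peaks of the 3 deposited lists that overlapped by at least 1 bp were merged into regions. A region was kept if it lay on chromosomes 1 to 19, had no control peak in it or within 1 kb of its edges, and carried a score of 30 or more in both double knockout lists. The rule kept 465 regions of 32725 on these chromosomes (1.42%), and of 33564 over all chromosomes. The scores and the missing control peak chose these regions, so both are given as description with no test.

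The libraries came from fetal mice at E16.5 (days of gestation). Epithelial cells of the small intestine were taken with magnetic beads against EpCAM, a surface protein of epithelial cells. The control group held 1 library, genotype Hnf4gCrispr/+, which has 1 mutated copy of Hnf4g. The double knockout (DKO) group held 2 libraries, genotype Shh-Cre; Hnf4af/f; Hnf4gCrispr/Crispr, in which both copies of Hnf4g are mutated and floxed Hnf4a is recombined where Shh-Cre is active. All 3 libraries therefore carry at least 1 mutated Hnf4g copy, and the control label names neither the Cre driver nor a floxed Hnf4a allele. The labels do not say whether embryos were pooled or whether the libraries came from separate litters, and the DKO pair is the only measure of replicate spread.

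HNF4A and HNF4G are nuclear receptors that bind DNA as dimers at closely similar sites and are best known as activators of enterocyte genes. Nuclear receptors of this kind commonly act at enhancers, short stretches of open chromatin that can lie far from the genes they act on. ATAC-seq reads such stretches from the sites at which the Tn5 transposase can insert into DNA. A region called in both knockout lists and not in the control list is one where open chromatin was called in the HNF4-deficient cells alone. Genes and DNA sequence of the build of the lists (mm9, per the submitters' processing notes) were not used here, so regions are identified by position alone, nearest genes and promoter shares are not given, and the epithelial label was not checked against marker genes.

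The score is a whole number attached by the authors to each window of fixed width, and the sources used here do not state its unit. It sets the meaning of strong only within a list. A score of 30 stood at percentile rank 66.0 of the DKO replicate 1 list, 71.8 of the DKO replicate 2 list and 78.8 of the control list. Scores of 30 or more made up 35.2% of the 18268 peaks of DKO replicate 1, 29.2% of the 26648 peaks of DKO replicate 2 and 22.1% of the 16977 control peaks. A score of 30 thus bounds the upper part of each DKO list, not its extreme top. Sequencing depth is unknown, and a missing control peak means that none was called.

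Among the 5035 autosomal regions with 30 or more in both DKO lists, 4520 held a control peak, 50 more had one within 1 kb, and the remaining 465 (9.24%) are the regions described. Over all 15352 autosomal regions called in both DKO lists, whatever their score, the share with no control peak within 1 kb was 32.6%. This share fell steadily with the lower of the DKO scores. It was 64.5% (Wilson 95% interval 62.0 to 66.9%) of 1477 regions at scores of 9 to 14 and 24.1% (22.3 to 25.9%) of 2181 regions at 25 to 29. Within the described range it was 15.3% (13.6 to 17.2%) of 1497 regions at 30 to 34, 7.41% (6.09 to 8.99%) of 1255 regions at 40 to 49, and 1.14% (0.489 to 2.64%) of 438 regions at 60 to 79. None of the 161 regions at 80 or above lacked a nearby control peak, for which the Wilson upper limit is 2.33% (1.86% by a limit of 3 counts). The intervals cover counting error over regions only.

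**Figure D1:**
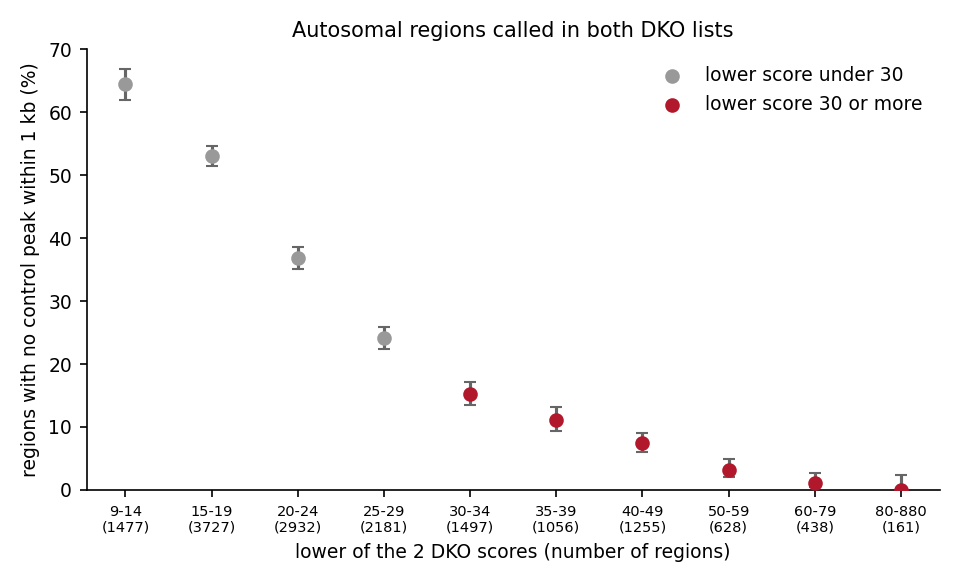
Share of autosomal regions called in both DKO lists that had no control peak within 1 kb (vertical axis, percent), by the lower of the 2 DKO scores (horizontal axis, number of regions in parentheses). Bars are Wilson 95% intervals; the share falls from 64.5% at the lowest scores to 15.3% at scores of 30 to 34 and to 0 of 161 at 80 or above.

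The replicate error behind these calls was read from the DKO pair. Of the 6320 autosomal DKO replicate 1 peaks with a score of 30 or more, 0.965% (0.752 to 1.24%) had no DKO replicate 2 peak within 1 kb, against 11.7% (10.9 to 12.5%) with no control peak within 1 kb. With each list cut to the length of the control list, the first share was 2.14% (1.81 to 2.52%). The second could not change, since this cut removes no control peak and no peak with a score of 30 or more. Of the 7630 such peaks of DKO replicate 2, 4.99% (4.53 to 5.51%) had no DKO replicate 1 peak within 1 kb and 20.6% (19.7 to 21.6%) had no control peak. Both shares against the control were larger than both shares between the replicates. The reverse also occurred: of the 3722 control peaks with a score of 30 or more, 10.5% (9.56 to 11.5%) had no DKO replicate 1 peak and 7.04% (6.26 to 7.91%) no DKO replicate 2 peak within 1 kb. With 1 control library, a difference between genotypes cannot be told apart from other properties of that library, and no test was made.

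In the 465 regions the DKO replicate 1 score ran from 30 to 77 with a median of 36, and the DKO replicate 2 score from 30 to 112 with a median of 42. The lower of the paired scores had a median of 35. DKO replicate 2 had the higher score in 310 regions (66.7%, 62.3 to 70.8%), and the scores were equal in 18. Across the 465 regions Spearman's rho between the replicates' scores was 0.30, over a range cut off at 30 in both lists, against 0.65 over the 4520 regions with 30 or more in both DKO lists that held a control peak. The latter ran much higher, with median scores of 44 and 45 and maxima of 906 and 880, so the 2 values are over different ranges. Regions at the edge of the rule were as common inside as outside it: 74 described regions had a lower score of exactly 30, and 72 otherwise qualifying regions were left out at exactly 29, with an upper score of at most 64. At the distance limit, chr3:58218192-58219112 (scores 30 and 31, replicate 1 first here and below) was kept with a control peak 1001 bp away, while chr12:92828154-92828958 (scores 59 and 49) was left out with one at 997 bp.

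Agreement in position between the DKO libraries was not used by the rule beyond the overlap of windows. Each of the 465 regions held exactly 1 peak of each DKO list, as did every region of the comparison sets below. The window centres of the replicates lay a median of 47 bp apart (95% interval of the median 42 to 53 bp), within 50 bp in 53.1% of regions (48.6 to 57.6%) and more than 300 bp apart in 5 regions. In the 4520 regions with the same score limit that also held a control peak, the median was 49 bp (47 to 51 bp), at a higher median lower score (40 against 35). In the 4533 regions of both DKO lists with no control peak within 1 kb but a score under 30 in at least 1 list, it was 67 bp (65 to 70 bp). Their median lower score was 17 against 35, a gap that the score limit sets by construction. The centres in the described regions were thus as close as in strong regions shared with the control, with overlapping intervals, and closer than in the weaker DKO-only regions. The difference was not tested, since regions of 1 pair of libraries are not replicates.

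The nearest control peak lay a median of 24474 bp from the edge of a described region (95% interval of the median 19492 to 28025 bp), with quartiles at 7274 and 70887 bp and a range of 1001 to 1078129 bp. There were 36 regions with a control peak at 1 to 2 kb, 141 (30.3%, 26.3 to 34.6%) with one within 10 kb, and 88 with none within 100 kb. In 13 regions none lay within 500 kb. For comparison, 17.9% (16.8 to 19.1%) of the 4533 weaker DKO-only regions had a control peak within 10 kb. The same share was 16.2% (15.2 to 17.3%) for the 4520 strong shared regions, counting only control peaks outside the region. Those regions already hold a control peak, so theirs is the distance to a further one and is not a like measure. In these lists the described regions thus lay within 10 kb of a control peak more often than either. The difference was not tested, since regions of the same 3 libraries are not replicates. No control peak lay within 100 kb of 18.9% (15.6 to 22.7%) of them, against 12.5% (11.6 to 13.5%) of the shared regions and 21.0% (19.8 to 22.2%) of the weaker DKO-only regions. Isolation beyond 100 kb was thus no more frequent than in DKO-only regions of lower score.

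**Figure D2:**
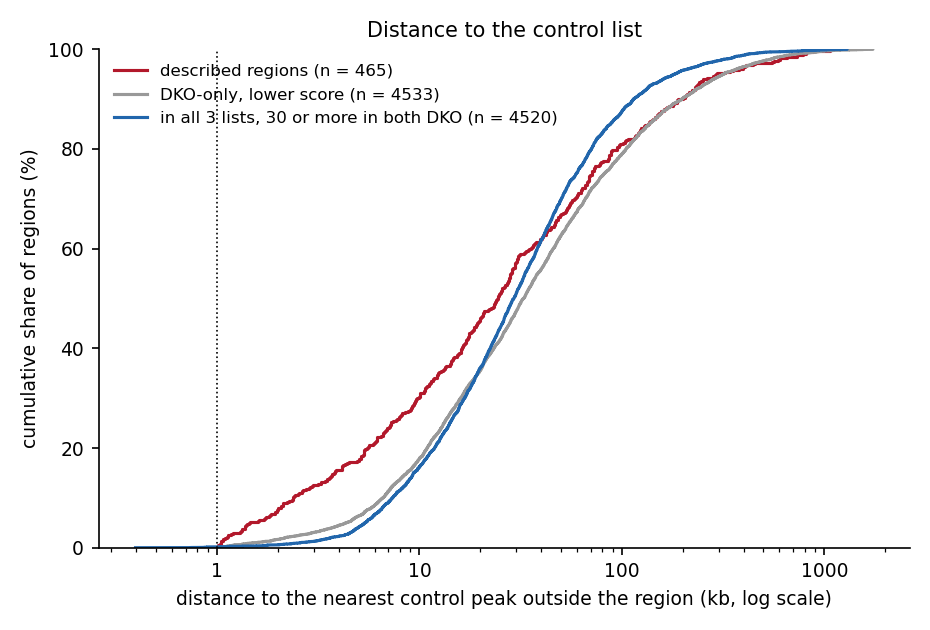
Cumulative share of regions (vertical axis, percent) by distance to the nearest control peak outside the region (horizontal axis, kb, log scale), for the 465 described regions, the 4533 weaker DKO-only regions and the 4520 strong regions shared with the control. The described regions rise first, with 30.3% within 10 kb against 17.9% and 16.2%. The shared regions already hold a control peak, so theirs is the distance to a further one. The dotted line marks the 1 kb limit of the rule.

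Other accessible regions were near at hand for many of them. No region of any list lay within 10 kb in 50.3% (45.8 to 54.8%) of the described regions, against 66.0% (64.6 to 67.3%) of the weaker DKO-only regions and 70.4% (69.1 to 71.8%) of the strong shared regions. A control-only region lay within 10 kb of 13.8% (10.9 to 17.2%), against 5.56% (4.93 to 6.26%) of weaker DKO-only and 4.36% (3.80 to 4.99%) of strong shared regions. A further region of both DKO lists only lay within 10 kb of 12.7% (9.97 to 16.0%), against 6.84% and 5.75%. The 248 control-only regions with a score of 30 or more and no DKO peak within 1 kb, chosen by the converse rule, had no region within 10 kb in 55.2% (49.0 to 61.3%) and a DKO-only region within 10 kb in 12.5% (8.95 to 17.2%). Values of these kinds in regions gained and lost by call therefore overlapped.

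Where a control peak was close, it was often one that neither DKO list held. Of the 36 described regions with the nearest control peak at 1 to 2 kb, that peak lay in no DKO-called region in 21 (58.3%, 42.2 to 72.9%), and so it did in 21 of 45 (46.7%, 32.9 to 60.9%) at 2 to 5 kb. At 5 to 10 kb the count was 16 of 60 (26.7%, 17.1 to 39.0%), and beyond 10 kb it was 81 of 324 (25%, 20.6 to 30.0%). Over all 16600 autosomal regions with a control peak, 25.8% (25.1 to 26.5%) had no DKO peak, so the farther distances were near this level and the closer ones above it. That level is over all distances from a DKO call, so it is not a baseline matched for distance. The weaker DKO-only regions gave 49.4% (38.5 to 60.3%) of 77 at 1 to 2 kb and 44.6% (38.1 to 51.3%) of 213 at 2 to 5 kb. The strong shared regions gave 42.1% (23.1 to 63.7%) of 19 and 21.25% (15.6 to 28.2%) of 160 at the same distances. Whether such neighbours belong to a single wider open stretch, with the window placed differently in each list, was not tested, since the windows have a fixed width.

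Regions on chromosomes 7 and 17 show this arrangement. The described regions chr7:52960039-52960659 (scoring 41 and 39), chr7:52970382-52971069 (56 and 39) and chr7:52976090-52976804 (43 and 36) shared 1 nearest control peak, 7053, 2068 and 7776 bp away. That peak had a control score of 44 (percentile rank 94.8 of the control list) and lay in no DKO-called region, so it stood between DKO-only calls on both sides. On chr17:13745401-13746004, where the scores were 60 and 54, a control peak scoring 49 lay 1325 bp away, again without a DKO call. The neighbours chr7:28013232-28013875 (47 and 63) and chr7:28017723-28018340 (32 and 32) lay 2368 and 6859 bp from a control peak scoring 35 that no DKO list held. In chr17:56175758-56176413 (57 and 41) and chr17:56179357-56180001 (49 and 68), the nearest such peak scored 20 and lay 3675 and 7274 bp away.

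The balance between the DKO replicates changed with distance from the control list. In the 141 regions with a control peak at 1 to 10 kb, the median score was 37 (95% interval of the median 35 to 39) in DKO replicate 1 and 39 (37 to 41) in DKO replicate 2. In the 88 regions beyond 100 kb the medians were 35 (33 to 36) and 49.5 (46 to 53) in the same order. By raw score, which has no stated common scale between lists, DKO replicate 2 was higher in 52.5% (44.3 to 60.5%) of the near regions, in 67.4% (61.2 to 73.0%) of the 236 at 10 to 100 kb and in 87.5% (79.0 to 92.9%) of the far ones. At 5 to 10 kb and 100 to 500 kb, this share was 53.3% of 60 and 86.7% of 75 described regions. The strong shared regions gave 48.9% (44.7 to 53.1%) of 546 and 60.3% (56.1 to 64.4%) of 537, a smaller step in the same direction. The weaker DKO-only regions gave 54.7% of 523 and 63.6% of 846, also a smaller step, but 70.1% of 77 at 1 to 2 kb. Beyond 500 kb the shares were 92.3% of 13 described, 75% of 28 shared and 73.6% of 106 weaker DKO-only regions. Across the 465 regions Spearman's rho between distance and the DKO replicate 2 score was 0.24, and with the DKO replicate 1 score it was -0.15. These points share their libraries and no p-value is attached. Ranks within a list gave the same order with distance but another balance near the control. DKO replicate 2 ranked higher in 67.4%, 79.7% and 96.6% of the regions at 1 to 10 kb, 10 to 100 kb and beyond. With the lists cut to equal length, these shares were 39.7% (32.0 to 48.0%), 57.2% and 83.0% (73.8 to 89.4%), so the direction turned in the near regions while the step with distance stayed.

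**Figure D3:**
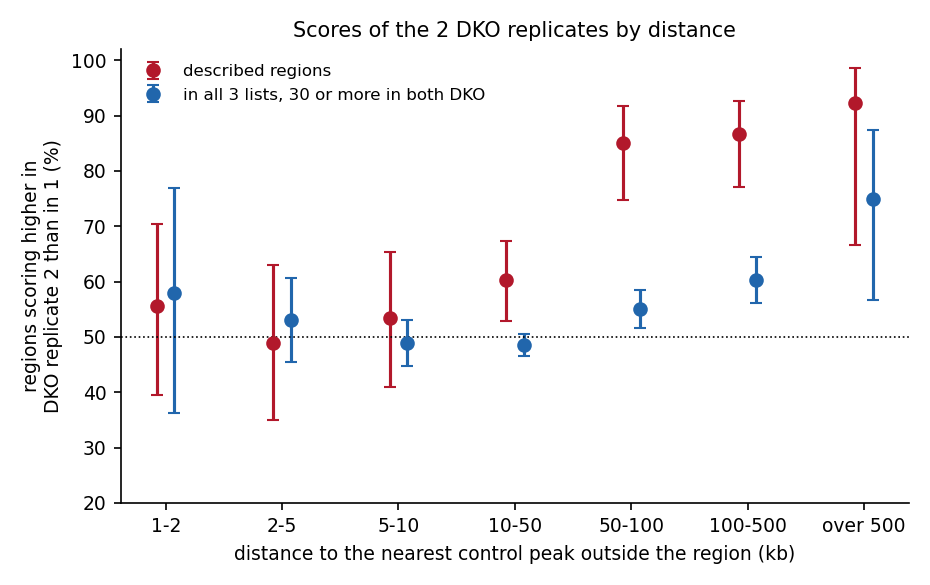
Share of regions scoring higher in DKO replicate 2 than in DKO replicate 1 (vertical axis, percent), by distance to the nearest control peak outside the region (horizontal axis, kb), for the described regions and the strong regions shared with the control. Bars are Wilson 95% intervals and the dotted line marks 50%; the described regions rise from 55.6% at 1 to 2 kb to 86.7% at 100 to 500 kb.

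The 20 regions with the highest lower percentile rank in the DKO lists fell along the same line. In 11 of them DKO replicate 2 scored higher, and their nearest control peaks were 34502 to 1068368 bp away. In the other 9 DKO replicate 1 scored higher, and their nearest control peaks were 1325 to 36481 bp away. These distances overlap only at their edges. The split is by raw score, and by rank it differs. Regions chr17:36053358-36053961 (ranks 96.565 and 96.576) and chr1:162964876-162965570 (95.4 and 95.8) scored higher in DKO replicate 1 but ranked slightly higher in replicate 2.

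Among those scoring higher in DKO replicate 2, chr4:78430244-78430948 led, scoring 73 in replicate 1 and 112 in replicate 2. It had no region of any list within 100 kb, and the nearest further DKO peak was 270635 bp away. The next, chr14:81039848-81040459 (scores 66 and 101), was likewise alone within 100 kb, and its replicate centres lay 11 bp apart. Both were thus single strong calls in otherwise empty surroundings. On chr15:17727021-17727717 the scores were 62 and 78, no region lay within 100 kb, and the nearest control peak, at 1068368 bp, had a score of only 18. The region chr10:65310285-65310940 (54 and 63) was also alone within 100 kb, with the nearest control peak at 124451 bp. Isolation of this kind was the minority pattern, since 32 of the 465 regions (6.88%, 4.92 to 9.55%) had no other region within 100 kb, against 4.09% (3.55 to 4.71%) of the strong shared regions, 7.10% (6.39 to 7.89%) of the weaker DKO-only regions and 6.45% (4.01 to 10.2%) of the strong control-only regions.

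Other regions of the same group lay in busier surroundings or near a control peak. On chr8:9934839-9935446 the scores were 53 and 111, the widest difference between replicates in this group, and 3 other regions lay within 100 kb. On chr1:99893467-99894147 (60 and 84) there were 8, of which 4 were of both DKO lists only and 2 of all 3 lists. The region chr14:102204384-102205080 (53 and 81) had 12, and its nearest control peak at 34502 bp was strong, with a score of 55. In the order given, 1, 2 and 3 of these neighbours were called in all 3 lists, and 1, 4 and 2 in both DKO lists only. A further 1, 0 and 1 were called in the control list only. Any others were called in 1 DKO list, with or without the control. For the chromosome 1 region the nearest control peak lay 77997 bp away, with a score of only 13. The remaining members with a higher DKO replicate 2 score were chr4:25822548-25823195 (54 and 75), chr17:4769115-4769724 (54 and 81), chr4:33957895-33958495 (53 and 84) and chr16:51617658-51618268 (53 and 85), with control peaks 377510, 138113, 52967 and 123595 bp away.

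Among those scoring higher in DKO replicate 1, chr7:80682461-80683125 had scores of 77 and 57 and a control peak of score 46 at 20266 bp, and 5 of the 6 regions within 100 kb were called in all 3 lists. On chr11:116295010-116295619 (73 and 57) a control peak 3620 bp away scored 26 and lay in no DKO-called region. On chr4:88425383-88425988 (69 and 53) there were 17 regions within 100 kb, 8 of them in all 3 lists, and 5 within 10 kb. This was the most crowded setting of the 20. The regions chr17:36053358-36053961 (65 and 62) and chr9:109777518-109778200 (53 and 50) were nearly level between the replicates, as was chr1:162964876-162965570 (60 and 59). The last members were chr8:73222431-73223061 (62 and 56), with 11 regions within 100 kb of which 7 were in all 3 lists, chr7:13623153-13623878 (60 and 53), with a control peak of score 43 at 2850 bp, and chr17:13745401-13746004, described above.

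**Figure D4:**
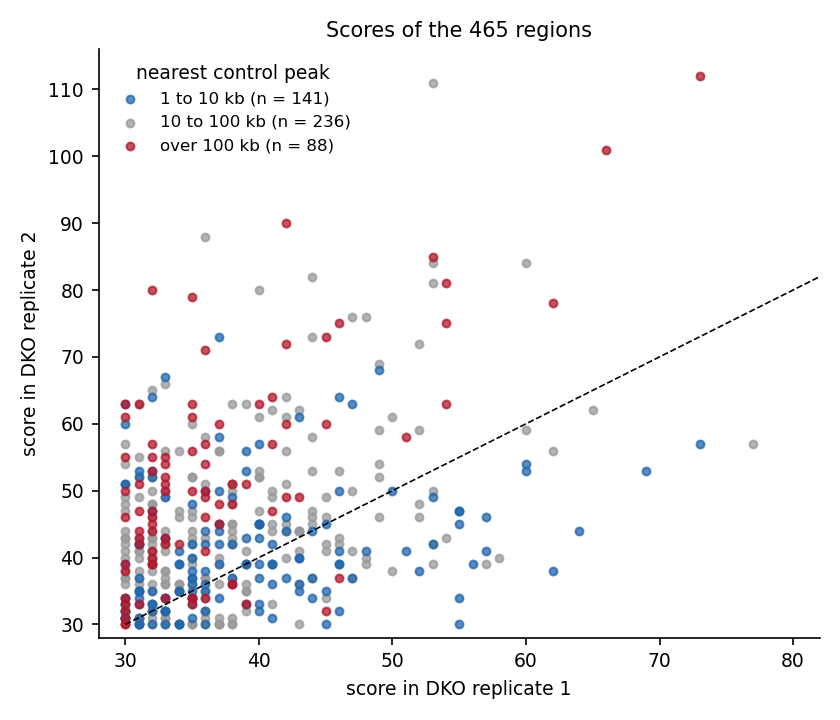
Score in DKO replicate 1 (horizontal axis) against score in DKO replicate 2 (vertical axis) for each of the 465 regions, coloured by distance to the nearest control peak (141 at 1 to 10 kb, 236 at 10 to 100 kb, 88 beyond). The dashed line marks equal scores; the regions beyond 100 kb lie mostly above it, with medians of 35 on the horizontal and 49.5 on the vertical axis.

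The farthest of all from the control list was chr10:73195984-73196625, with scores of 38 and 36 and the nearest control peak 1078129 bp away. A further DKO peak lay only 6873 bp from it. After it and the chromosome 15 region came chr1:144053895-144054497 (32 and 44), at 875337 bp, chr8:51167560-51168261 (42 and 49), at 808568 bp, and chr1:144763735-144764335 (42 and 90), at 785502 bp. The pair on chromosome 1 lay 709237 bp apart within the same stretch that lacked control peaks. Centres of the replicates coincided exactly in the second of them and were 2 bp apart in the first. Among the 88 regions beyond 100 kb, 56 had another DKO-called region within 100 kb, and in 24 at least 1 of these was called in both DKO lists.

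The median distance to the next described region was 1403279 bp, and 42 of 465 (9.03%) had another within 100 kb and 19 within 10 kb. Wide spacing follows in part from the small number of regions. No matching share over other strong regions was computed, so whether the described regions cluster was not tested. The closest pair was chr2:122200989-122201619 (scores 38 and 44) and chr2:122202848-122203586 (45 and 46), 1228 bp apart, with control peaks 26166 and 28025 bp away. After the chromosome 17 pair given above, separated by 2943 bp, came chr7:140198808-140199412 (34 and 47) and chr7:140202885-140203490 (39 and 35), 3472 bp apart. The chromosome 7 pair at 28 Mb was 3847 bp apart. The fifth, chr4:62180649-62181358 (38 and 48) and chr4:62185988-62186605 (42 and 44), was 4629 bp apart. No other called region lay between the partners of any of these 5 pairs.

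All 19 autosomes held described regions, from 12 on chromosomes 14 and 19 to 41 on chromosome 7. Set against the regions strong in both DKO lists on the same chromosome, the share ran from 6.52% (3.99 to 10.5%) of 230 on chromosome 13 to 13.5% (9.88 to 18.2%) of 259 on chromosome 17, around the 9.24% of all autosomes. The interval of chromosome 17 alone excluded the overall share, and 19 intervals were compared. In windows of 5 Mb, the most were 8 of 36 strong regions at 50 to 55 Mb of chromosome 7, 7 of 41 at 25 to 30 Mb of the same chromosome, and 6 each at 45 to 50 Mb of chromosome 17 (of 19) and 85 to 90 Mb of chromosome 3 (of 24). The nearest of the 6 on chromosome 17 were 231640 bp apart, and the nearest of the 6 on chromosome 3 were 9659 bp apart. Of the 280 windows with a described region, 166 held only 1.

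**Figure D5:**
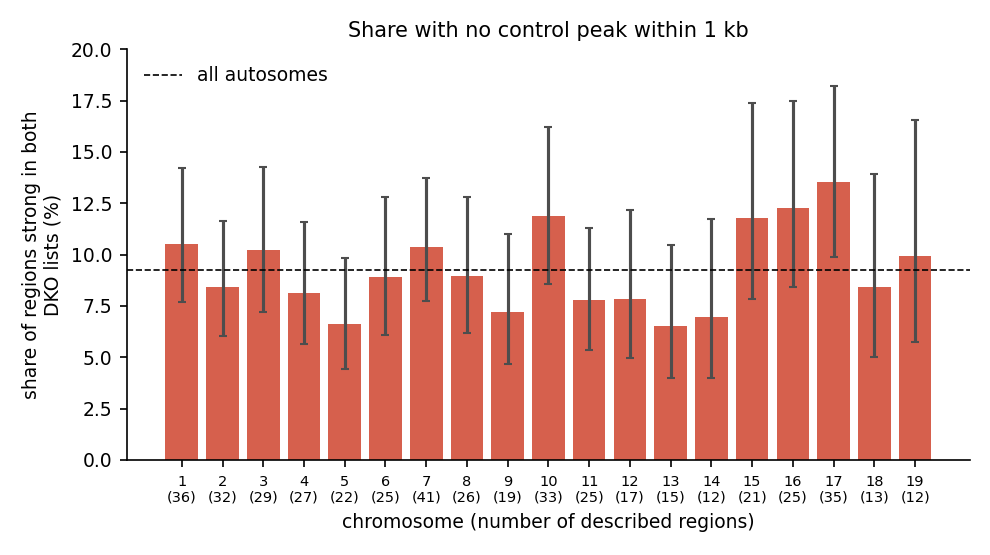
Described regions as a share of the autosomal regions with a score of 30 or more in both DKO lists (vertical axis, percent), by chromosome (horizontal axis, number of described regions in parentheses). Bars are Wilson 95% intervals and the dashed line is the share over all autosomes, 9.24%; the shares run from 6.52% on chromosome 13 to 13.5% on chromosome 17.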

How the data were processed

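ATAC-seq was performed on 20000 cells per library with single-end reads of 75 bp, per the labels' protocols. The authors deposited 1 peak list per library, and each deposited peak is a window of 1 fixed width with a score of unstated meaning. Bowtie2 2.2.6, MACS 1.4.1 and the build mm9 appear in the submitters' processing notes, without settings; handling of duplicates and any shift of reads for the transposase are not given in the sources used here, and both could move windows and scores. Positions are 1-based. Regions, distances (bases between edges) and percentile ranks (within a list, ties averaged) were computed in Python 3.11.15 with pandas 2.3.3, numpy 2.4.6 and SciPy 1.17.1, and the functions were tested on simulated lists. Shares carry Wilson 95% intervals, and medians carry 95% intervals from binomial order statistics. Regions named singly are the 20 with the highest lower percentile rank, the 5 farthest from a control peak, the 5 closest pairs, and, chosen after their values were seen, examples with a close control peak and the regions at the limits of the rule. The rule and lists were chosen with earlier results of these data known. Planned promoter shares, gene lists, motif shares and sequences were not computed, because the gene table at hand is of another build (GRCm38). Alternatives varied the score and distance limits, the merging and the list length.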

Additional observations from a re-analysis of the deposited data

Results flagged for a closer look

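Sex chromosomes were outside the described set. On chromosome X, 7 regions met the rule apart from its limit to autosomes. On chromosome Y, 5 regions met it. The control list held 2 Y peaks, while the first DKO replicate had 24 and the second had 40, in data that the comparisons did not use. The labels used here do not give the sex of the embryos. Whether sex differed between the control and the DKO libraries was not tested, and it cannot be told apart from genotype here.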

How the results depend on the processing

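The 465 regions numbered 990 with a score limit of 25, 118 with 40, and 155 with no control peak within 50 kb. Requiring only 1 DKO replicate gave 738 to 1574 regions, the lower value without DKO replicate 2. The count stayed within 1.5 times 465 with equal list lengths, an equal percentile rank (334), 300 bp of overlap for merging, control distances of 0, 5 and 10 kb (515, 384 and 324), and all chromosomes. The median distance to a control peak was 48148 bp when only control peaks at or above the control median score counted, and 21456.5 to 29574.5 bp with either DKO replicate left out. The median distance between centres stayed within its interval in every alternative run, although equal list lengths could not move it. The alternatives for the results that follow, and for the centres, were chosen after the lists had been seen. DKO replicate 2 ranked higher in 79.1% of the regions, but in 56.8% at equal list lengths, 71.0% at an equal percentile rank and 72.9% at a score of 40. Regions with another described region within 100 kb made up 5.08% at a score of 40. Peaks without a counterpart are given in the order DKO replicate 1 against DKO replicate 2, DKO replicate 2 against DKO replicate 1, DKO replicates 1 and 2 against the control, and the control against DKO replicates 1 and 2. A score of 25 gave 1.91%, 9.42%, 17.3%, 26.9%, 14.5% and 9.96%, and a score of 40 gave 0.520%, 1.79%, 5.66%, 13.5%, 5.63% and 3.69%. Equal list lengths moved the first to 2.14%, the second to 5.62% and the last to 9.56%. Cause was not tested for any of these changes beyond what each limit does by construction. No paired analysis was possible because a single unnumbered control library cannot be matched to either knockout. The alternatives for promoter and motif shares were not run. Unknown depth limits every missing peak: a region just under the caller's threshold in the control cannot be told apart from one that is closed.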
